A study of Mus musculus with 16 samples.

Results

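The genes described here are the interleukins and interleukin receptor chains of a tumour immune panel that remain once 23 listed genes, most of them of the IL-1, IL-4, IL-13, IL-17 and IL-18 systems, are set aside. They were chosen by name, as every panel row that starts with Il and a digit except those 23 (such as Il4, Il2ra, Il5ra, Il1b, Il18 and Il17a), which gave 36 of the 770 genes. 19 encode secreted ligands and 17 encode receptor chains. By family, 10 belong to the common gamma chain system, 7 to the IL-12 family, 5 to the IL-6 family that signals through gp130, 7 to the IL-10 family and 3 to the IL-3 and IL-5 system, and 4 (Il13ra2, Il16, Il34 and Il1rapl2) stand outside these; Il13ra2 binds IL-13 and Il1rapl2 is of the IL-1 receptor family, and both were kept by the naming rule.

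Transcripts of 16 mouse tumours were counted with bar-coded hybridization probes (NanoString, mouse PanCancer Immune), an assay with no amplification step. The tumours grew from the colorectal cancer cell line MC38 or the breast cancer cell line E0771, both of mouse, implanted at the right shoulder with matrigel (500000 cells per mouse). Immunotherapy against PD-1 and CTLA-4 was given in all groups, and the imaging point was post-treatment day 5, so that every group shares this treatment and none is untreated. Each tumour is labelled hypoxic or normoxic: 4 MC38 normoxic (mice 4, 7, 10 and 21), 4 MC38 hypoxic (mice 12, 14, 17 and 25), 5 E0771 normoxic (mice 4, 17, 38, 65 and 71) and 3 E0771 hypoxic (mice 12, 22 and 55). Neither the genotype, strain nor age of the mice was given in the sources used here. The study's design describes PET imaging of hypoxia with a fluoromisonidazole tracer; uptake values were not analysed here. Each line is a single cell line, and host and tumour cells were measured together.

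Interleukins are small secreted proteins through which leukocytes, stromal cells and tumour cells signal to each other. Most of the cytokines described here bind receptors made of a private chain and a shared one (the common gamma chain Il2rg, gp130 Il6st, or IL-12 receptor beta 1 Il12rb1) that activate JAK kinases and STAT transcription factors. In tumours, IL-2, IL-7, IL-15 and IL-21 are known to sustain T and NK cells, IL-12 to favour interferon gamma production, IL-23 to sustain IL-17 producing cells, IL-6 and IL-11 to act on tumour and myeloid cells through STAT3, IL-10 to restrain antigen presenting cells, and IL-34 to maintain macrophages through the receptor Csf1r.

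Values are normalized signal, the probe count of a tumour multiplied by 1 factor that sets the geometric mean of 20 housekeeping genes to the same level in every tumour. The estimated count of all genes before that scaling was 180274 to 890239 per tumour, and 5 tumours lay under 350000 (MC38 hypoxic 14 and 25, E0771 hypoxic 12 and 22, and E0771 normoxic 65). The mean of the negative-control probes on the same scale was 2.69 to 24.6; the 3 highest were 24.6, 17.4 and 15.6, in hypoxic 22, hypoxic 12 and normoxic 65 of the E0771 tumours. A gene was tested when its mean over the 16 tumours reached 24.0, which is the mean plus 2 SD of the scaled negative probes; 712 genes did. Tests were made with limma on log2(signal + 1), which understates differences of low genes, and calls are at a Benjamini-Hochberg adjusted p under 0.05 over the 712 genes. As the tumours are whole tissue, fewer cells of a type and less RNA per cell cannot be told apart. Run and cartridge of each tumour were not analysed here.

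**Figure D1:**
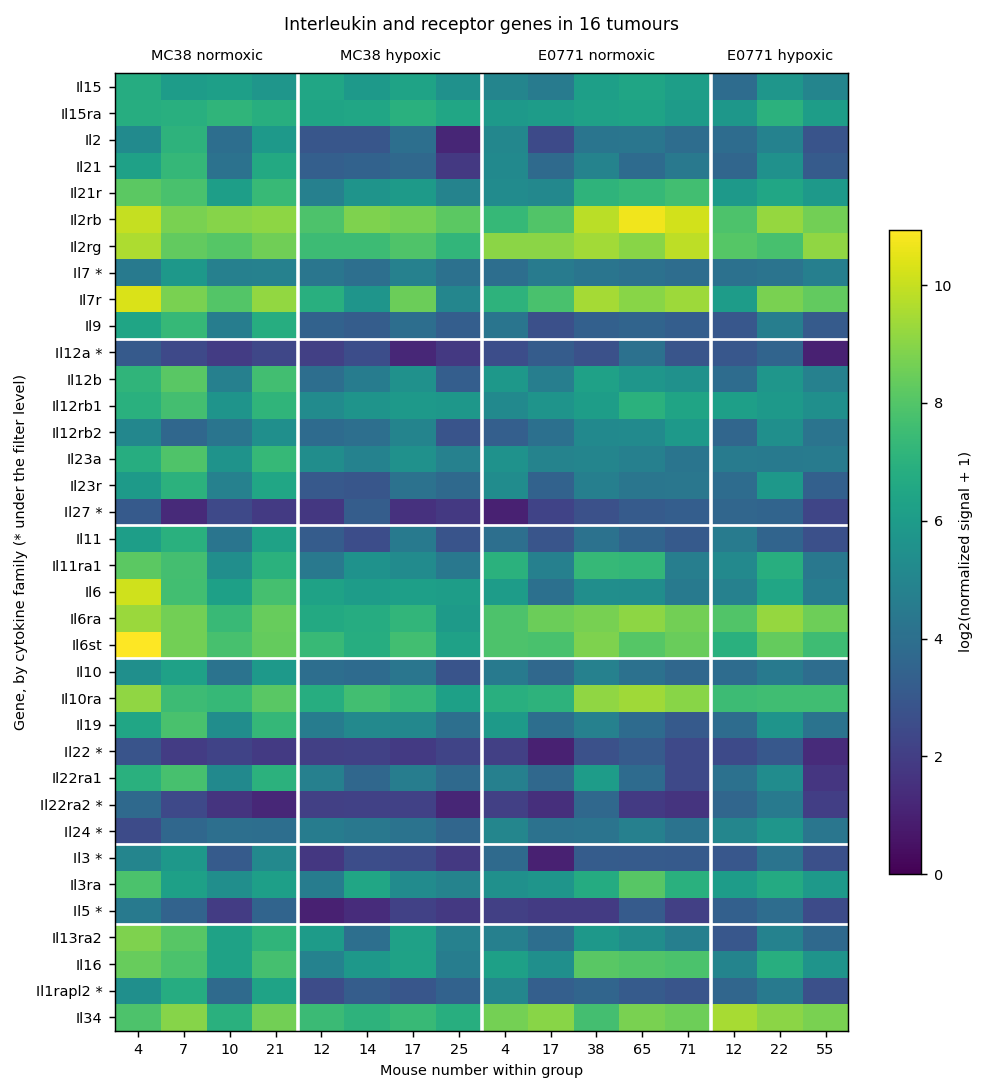
Heat map of log2(normalized signal + 1) for the 36 genes (rows, by cytokine family) in 16 tumours (columns, by group and mouse number); an asterisk marks the 9 genes under the filter level. The columns of MC38 normoxic 4, 7 and 21 are brighter in most rows than those of the MC38 hypoxic tumours.

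Of the 36 genes, 27 reached the filter level and 9 did not. Il12a, the p35 chain that pairs with Il12b to form IL-12, was at 1 to 15.9 over all 16 tumours and lay above its own negative-probe level (their mean plus 2 SD in that tumour) in none. Il27, the p28 chain of IL-27 (1 to 11.4), and Il22, a cytokine that acts on epithelia (1 to 7.96), were likewise above that level in no tumour. Il22ra2, a soluble receptor that binds IL-22 (1.24 to 21.1), was above it in 1 tumour and Il5, the eosinophil growth factor (1 to 21.5), in 2. These 5 genes were thus at the level of background, which does not show that their transcripts were absent. Il24 (4.60 to 52.8) was above the negative probes in 10 tumours and Il7, a survival factor of T cells (13.8 to 56.4), in 13.

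A pair of the genes under the filter level were high in a single group. Il1rapl2, a receptor of the IL-1 receptor family known mainly from the nervous system, measured 42.9, 109.9, 12.9 and 81.5 in normoxic tumours 4, 7, 10 and 21 and 4.90, 8.27, 6.57 and 9.94 in hypoxic tumours 12, 14, 17 and 25 of MC38. Il3, a growth factor of mast cells and basophils, measured 30.7, 56.4, 7.90 and 34.7 in normoxic tumours 4, 7, 10 and 21 and 2.45, 4.96, 4.60 and 2.48 in hypoxic tumours 12, 14, 17 and 25. In both, normoxic tumours 4, 7 and 21 lay far above the other MC38 tumours and normoxic 10 lay near the hypoxic ones. Their means over 16 tumours, 23.8 and 13.2, kept them out of the test. The reverse holds for 7 tested genes (Il2, Il9, Il10, Il11, Il21, Il22ra1 and Il23r), which reached the filter level only through the MC38 normoxic group: without it their mean lay under 24.0, as did that of 87 of the 712 genes. A gene of this kind had to be high in MC38 normoxic tumours to be tested at all. Il12rb2 was tested only because of the E0771 normoxic tumours.

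The MC38 comparison asks how hypoxic tumours differ from normoxic ones of the same line. In MC38, 20 of the 27 tested genes were lower in hypoxic tumours, 7 did not pass and none was higher. Over all 712 genes 48.0% were called lower and 0.562% higher, 48.6% in all, so that falling in hypoxic MC38 tumours was common on the whole panel. The median difference of the 27 was -1.91 on the log2 scale, against -1.27 for all genes. 7 of the 20 calls are the genes named above that were tested only because of the MC38 normoxic tumours. Without such genes, 13 of 20 members were called lower (median -1.78), against 41.6% of 625 genes (median -1.07). In 8 of the 20 called genes the hypoxic MC38 mean lay under 24.0, so the size of their fall is limited by background. Of these 8, Il2 and Il23r lay above the negative probes in 1 of the 4 hypoxic tumours. Il9, Il10, Il11, Il21 and Il22ra1 did so in 2 and Il12b in 3. In 11 of the 27 the 4 hypoxic tumours lay below all 4 normoxic tumours. Among these 11, Il9, Il21, Il22ra1 and Il23r were tested only because they were high in the MC38 normoxic tumours. The share among all genes was 24.3%, and 0.562% lay the other way. For none of the 27 did all hypoxic tumours lie above all normoxic tumours.

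Il21, Il9 and Il2 of the common gamma chain family had the 3 differences farthest below 0, and all 3 are among the genes tested only because of the MC38 normoxic tumours, the group in which they were high. Il21, a cytokine of follicular and helper T cells, measured 76.7, 155, 16.5 and 100.2 in normoxic tumours 4, 7, 10 and 21 and 8.99, 9.92, 11.8 and 2.48 in hypoxic tumours 12, 14, 17 and 25. Il9, a product of helper T cells and mast cell growth factor, measured 84.3, 160.5, 23.7 and 114 in normoxic tumours 4, 7, 10 and 21 and 9.81, 8.27, 14.5 and 8.69 in hypoxic tumours 12, 14, 17 and 25. Il2, the T cell growth factor, measured 36.8, 133, 14.4 and 58.8 in normoxic tumours 4, 7, 10 and 21 and 6.54, 6.61, 15.1 and 1.24 in hypoxic tumours 12, 14, 17 and 25. For Il21 and Il9 every hypoxic tumour lay below every normoxic one, whereas for Il2 hypoxic 17 lay just above normoxic 10. Il21 fell by 3.03 ± 0.71 on the log2 scale (SE, n = 4 and 4; limma, adjusted p = 0.00793). Il9 fell by 2.84 ± 0.61 (limma, adjusted p = 0.00732) and Il2 by 2.78 ± 0.77 (limma, adjusted p = 0.0110). In the hypoxic tumours all 3 genes lay close to the negative probes: their highest hypoxic values were 11.8, 14.5 and 15.1, and their hypoxic means were 8.30 ± 4.06, 10.3 ± 2.84 and 7.37 ± 5.74 (SD, n = 4). In E0771 the 3 genes stayed at 7.71 to 45.8, 5.45 to 24.6 and 4.54 to 32.8.

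The sequences before the start sites of Il2, Il21, Il9 and Il6 are shown. These are 4 of the 10 ligands called lower in hypoxic MC38 tumours, and Il2 and Il21 both lie on chromosome 3. Each is the 250 bases before the RefSeq start of GRCm38.p6, written 5′ to 3′ on the gene's strand, with matches in capitals to ACGTG (the core bound by hypoxia-inducible factors), its variant spelled GCGTG, TTCNNNGAA (STAT factors), TGANTCA (AP-1) and the TATA box sequence TATAAA, each searched on both strands; the motifs overlapped in none of the 4 windows.
Il2, chr3:37125955-37126204, minus strand: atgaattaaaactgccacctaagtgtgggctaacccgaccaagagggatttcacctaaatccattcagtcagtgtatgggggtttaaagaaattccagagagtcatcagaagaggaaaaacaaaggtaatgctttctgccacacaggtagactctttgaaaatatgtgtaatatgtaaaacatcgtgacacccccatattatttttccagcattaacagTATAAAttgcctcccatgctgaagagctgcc
Il21, chr3:37232637-37232886, minus strand: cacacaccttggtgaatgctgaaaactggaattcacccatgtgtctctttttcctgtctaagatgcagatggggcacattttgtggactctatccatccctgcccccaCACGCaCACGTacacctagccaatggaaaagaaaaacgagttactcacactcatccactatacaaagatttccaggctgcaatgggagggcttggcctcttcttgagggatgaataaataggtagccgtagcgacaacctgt
Il9, chr13:56482258-56482507, minus strand: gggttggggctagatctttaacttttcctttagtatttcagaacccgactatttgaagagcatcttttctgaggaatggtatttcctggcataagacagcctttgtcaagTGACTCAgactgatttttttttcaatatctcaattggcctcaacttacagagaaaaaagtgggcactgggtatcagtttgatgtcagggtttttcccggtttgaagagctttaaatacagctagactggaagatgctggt
Il6, chr5:30012864-30013113, plus strand: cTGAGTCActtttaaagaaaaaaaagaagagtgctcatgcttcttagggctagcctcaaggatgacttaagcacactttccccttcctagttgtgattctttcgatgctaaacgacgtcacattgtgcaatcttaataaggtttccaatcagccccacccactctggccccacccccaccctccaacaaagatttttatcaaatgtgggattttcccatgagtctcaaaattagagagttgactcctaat
The Il21 window held 1 match to the hypoxia-inducible factor core as well as 1 to its variant, and the other 3 windows held neither. The Il9 and Il6 windows held 1 AP-1 match each. The Il2 window held 1 TATA box match. None of the 4 held the STAT motif. Among 32851 mouse promoter windows of the same length, 16.6% held the core, 28.2% the variant, 7.0% the STAT motif, 6.7% the AP-1 motif and 12.4% the TATA box. Windows were matched for 25 of the 36 genes (31 windows), of which 2 held the core, 7 the variant, 3 the STAT motif, 7 the AP-1 motif and 3 the TATA box. These are matches of letters only.

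Of the 5 tested receptor chains of the same family, 3 fell. Il7r, the IL-7 receptor alpha chain of naive and memory T cells, measured 1280.3, 422, 261 and 584 in normoxic tumours 4, 7, 10 and 21 and 118, 51.2, 359 and 31.1 in hypoxic tumours 12, 14, 17 and 25. It fell by 2.54 ± 0.77 (limma, adjusted p = 0.0156), with hypoxic 17 above normoxic 10. Il21r, the IL-21 receptor, fell by 2.05 ± 0.60 (limma, adjusted p = 0.0135; 26.1 to 61.8 in hypoxic and 69.7 to 289.8 in normoxic tumours). Il2rg, the shared signalling chain, fell by 1.11 ± 0.38 (limma, adjusted p = 0.0260; 148 to 242 against 267 to 771.25). The groups did not overlap for Il21r and Il2rg. Il2rb, the chain shared by the IL-2 and IL-15 receptors and typical of cytotoxic cells, measured 1012, 426, 489 and 549 in normoxic tumours 4, 7, 10 and 21 and 234, 455, 399.6 and 291 in hypoxic tumours 12, 14, 17 and 25. At -0.81 ± 0.61 it did not pass (limma, adjusted p = 0.265), and normoxic 7 lay below hypoxic 14.

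Il15 and its presenting receptor Il15ra stood nearest to no difference of the 27. Il15, which sustains NK and memory CD8 T cells, measured 107, 65.1, 71.8 and 53.4 in normoxic tumours 4, 7, 10 and 21 and 88.2, 57.9, 80.8 and 46.0 in hypoxic tumours 12, 14, 17 and 25. Its difference was -0.12 ± 0.51 (limma, adjusted p = 0.855), and the groups overlapped throughout. Il15ra measured 110.4, 119, 141 and 115 in normoxic tumours 4, 7, 10 and 21 and 83.3, 87.6, 122 and 86.9 in hypoxic tumours 12, 14, 17 and 25, a difference of -0.36 ± 0.35 (limma, adjusted p = 0.378). Relative to the median gene of each tumour, which adds 1.12 to every MC38 difference, Il15 was at 0.999 (adjusted p = 0.0522) and Il15ra at 0.76 (0.108).

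**Figure D2:**
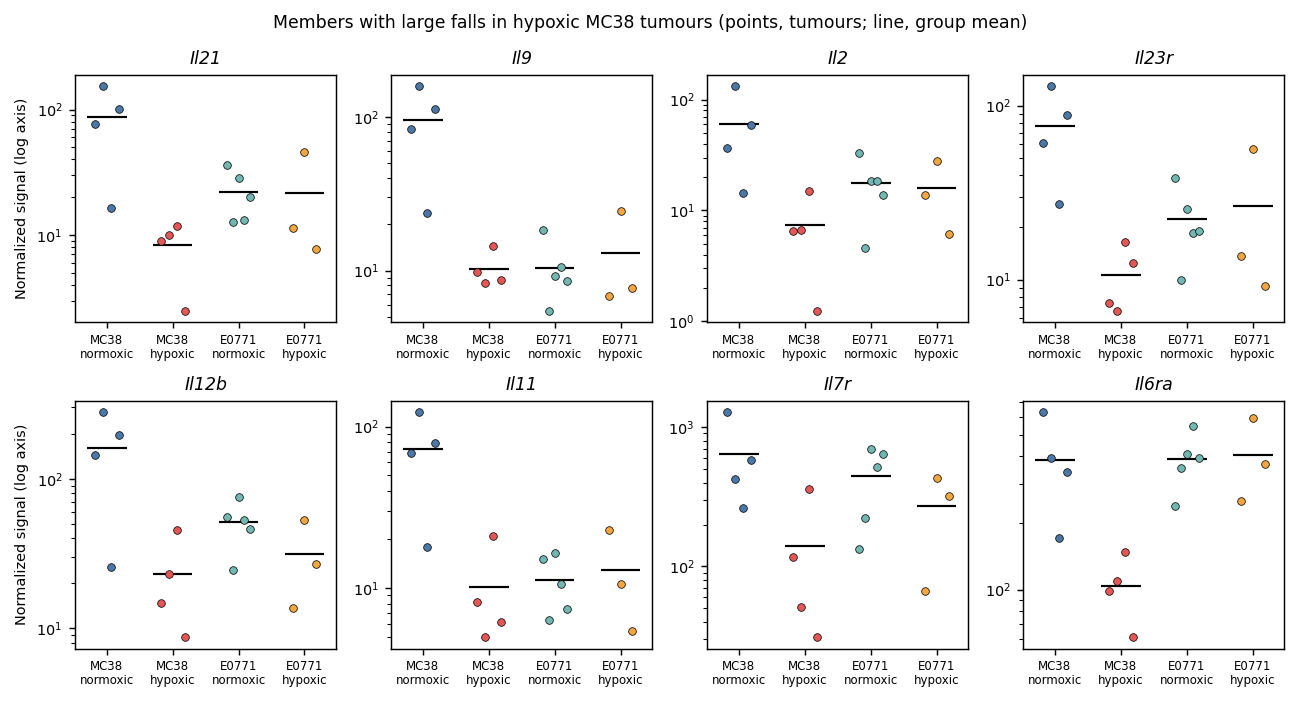
Normalized signal (log axis) of 8 genes in each tumour (points) of the 4 groups, with the group mean (line). In all 8 the MC38 hypoxic mean lies under the MC38 normoxic mean, and MC38 normoxic 10 is the lowest normoxic point of MC38 in all 8.

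In the IL-12 family 4 of the 5 tested genes fell (Il12b, Il23r, Il23a and Il12rb1), beside the p35 and p28 chains that were at background. Il12b, the p40 subunit shared by IL-12 and IL-23, measured 144, 279, 25.9 and 195 in normoxic tumours 4, 7, 10 and 21 and 14.7, 23.1, 45.3 and 8.69 in hypoxic tumours 12, 14, 17 and 25. It fell by 2.57 ± 0.69 (limma, adjusted p = 0.00956). Il23r, the IL-23 receptor chain of IL-17 producing lymphocytes, measured 61.3, 130.1, 27.3 and 88.2 in normoxic tumours 4, 7, 10 and 21 and 7.35, 6.61, 16.4 and 12.4 in hypoxic tumours 12, 14, 17 and 25. It fell by 2.61 ± 0.63 (limma, adjusted p = 0.00812) with no overlap between the groups, while for Il12b hypoxic 17 lay above normoxic 10. Il23r was tested only because of the MC38 normoxic tumours, and its hypoxic values were near background. Il23a, the p19 subunit of IL-23, measured 112, 241, 48.8 and 160.3 in normoxic tumours 4, 7, 10 and 21 and 40.0, 28.1, 45.3 and 27.3 in hypoxic tumours 12, 14, 17 and 25 and fell by 1.78 ± 0.48 (limma, adjusted p = 0.00967). Its hypoxic tumours all lay below normoxic 10. Il12rb1, the receptor chain common to IL-12 and IL-23, measured 123, 205, 50.3 and 142 in normoxic tumours 4, 7, 10 and 21 and 38.4, 49.6, 57.8 and 54.6 in hypoxic tumours 12, 14, 17 and 25. Its fall of 1.21 ± 0.47 (limma, adjusted p = 0.0430) was the closest to the threshold, with normoxic 10 under hypoxic 17 and 25. Il12rb2, the chain specific to IL-12, was at -0.70 ± 0.66 (6.21 to 29.6 in hypoxic and 11.6 to 42.8 in normoxic tumours) and did not pass (limma, adjusted p = 0.369).

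All 5 genes of the IL-6 family fell in hypoxic MC38 tumours. Il6, the inflammatory ligand of the family, measured 1138, 199.51, 73.2 and 208 in normoxic tumours 4, 7, 10 and 21 and 77.6, 64.5, 72.3 and 67.1 in hypoxic tumours 12, 14, 17 and 25. Normoxic 4 stood far above the rest, and normoxic 10 lay among the hypoxic tumours. Il6 fell by 1.78 ± 0.68 (limma, adjusted p = 0.0391), and without normoxic 4 the difference was -1.04 and did not pass (adjusted p = 0.177). Il6st, which encodes gp130, measured 1970.3, 387, 217 and 329 in normoxic tumours 4, 7, 10 and 21 and 163, 112, 195 and 75.8 in hypoxic tumours 12, 14, 17 and 25 and fell by 1.91 ± 0.56 (limma, adjusted p = 0.0132). Il6ra, the ligand binding chain for IL-6, measured 633, 395, 170.2 and 338 in normoxic tumours 4, 7, 10 and 21 and 98.9, 109, 147 and 60.9 in hypoxic tumours 12, 14, 17 and 25 and fell by 1.79 ± 0.42 (limma, adjusted p = 0.00793). For both receptor chains the groups did not overlap. Il11, a gp130 cytokine of stromal and tumour cells, measured 69.0, 123, 17.9 and 78.8 in normoxic tumours 4, 7, 10 and 21 and 8.17, 4.96, 21.0 and 6.21 in hypoxic tumours 12, 14, 17 and 25. It fell by 2.64 ± 0.65 (limma, adjusted p = 0.00812), with hypoxic 17 above normoxic 10. Il11ra1, its receptor chain, measured 291, 204, 41.6 and 126 in normoxic tumours 4, 7, 10 and 21 and 20.4, 46.3, 37.5 and 19.9 in hypoxic tumours 12, 14, 17 and 25 and fell by 2.16 ± 0.75 (limma, adjusted p = 0.0265), with hypoxic 14 above normoxic 10.

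Of the 4 tested IL-10 family genes 3 fell. Il19, a cytokine of myeloid and epithelial cells, measured 88.9, 223, 40.2 and 156 in normoxic tumours 4, 7, 10 and 21 and 22.9, 34.7, 33.5 and 14.9 in hypoxic tumours 12, 14, 17 and 25 and fell by 2.03 ± 0.66 (limma, adjusted p = 0.0209). Il22ra1, the IL-22 receptor chain of epithelia, measured 123, 215, 35.2 and 128 in normoxic tumours 4, 7, 10 and 21 and 26.1, 11.6, 23.7 and 12.4 in hypoxic tumours 12, 14, 17 and 25 and fell by 2.53 ± 0.82 (limma, adjusted p = 0.0204). In both, the lowest normoxic tumour was normoxic 10 and it lay above every hypoxic one. Il10, the anti-inflammatory ligand, measured 42.9, 75.2, 17.2 and 60.1 in normoxic tumours 4, 7, 10 and 21 and 14.7, 13.2, 18.4 and 6.21 in hypoxic tumours 12, 14, 17 and 25. It fell by 1.72 ± 0.54 (limma, adjusted p = 0.0177), with hypoxic 17 above normoxic 10. Il10ra, the IL-10 binding chain of leukocytes, measured 557, 181, 159 and 282 in normoxic tumours 4, 7, 10 and 21 and 111, 200.04, 154 and 74.5 in hypoxic tumours 12, 14, 17 and 25. It was at -1.03 ± 0.57 and did not pass (limma, adjusted p = 0.133); hypoxic 14 lay above normoxic 7 and 10.

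Among the genes outside these families, Il13ra2, a decoy receptor for IL-13, measured 455, 273, 77.6 and 142 in normoxic tumours 4, 7, 10 and 21 and 63.7, 14.9, 75.6 and 27.3 in hypoxic tumours 12, 14, 17 and 25 and fell by 2.32 ± 0.65 (limma, adjusted p = 0.0115). All of its hypoxic values lay under the lowest normoxic one, though hypoxic 17 and normoxic 10 were nearly level. Il16, a cytokine that binds CD4, measured 334, 229.9, 77.6 and 212 in normoxic tumours 4, 7, 10 and 21 and 27.8, 56.2, 78.9 and 23.6 in hypoxic tumours 12, 14, 17 and 25 and fell by 2.16 ± 0.66 (limma, adjusted p = 0.0161), with hypoxic 17 just above normoxic 10. Il34, a ligand of Csf1r, measured 236, 503, 124 and 394 in normoxic tumours 4, 7, 10 and 21 and 177, 136, 164 and 116 in hypoxic tumours 12, 14, 17 and 25. At -0.92 ± 0.41 it did not pass (limma, adjusted p = 0.0723), and only normoxic 10 lay among the hypoxic tumours. Il3ra, the IL-3 receptor alpha chain, measured 230.0, 73.7, 40.9 and 72.2 in normoxic tumours 4, 7, 10 and 21 and 22.9, 87.6, 38.1 and 28.6 in hypoxic tumours 12, 14, 17 and 25 and did not pass at -1.11 ± 0.62 (limma, adjusted p = 0.138), with hypoxic 14 above normoxic 7, 10 and 21.

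**Figure D3:**
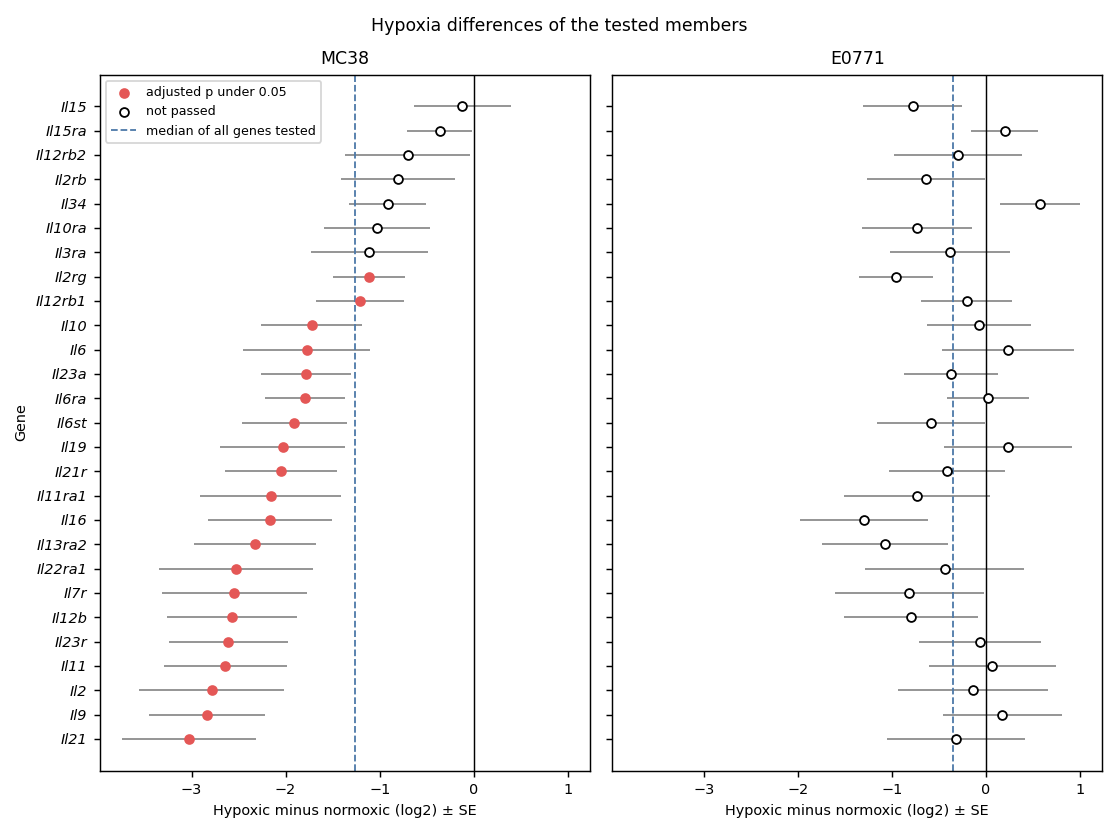
Log2 difference between hypoxic and normoxic tumours (points) with its standard error (bars) for the 27 tested genes in MC38 (left) and E0771 (right); filled points passed, and the dashed line is the median of all 712 genes. In MC38 every point lies left of 0 and 20 are filled, and in E0771 none is filled.

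How firmly the MC38 calls stood differed between genes. 9 of the 20 (Il2, Il9, Il11, Il12b, Il13ra2, Il21, Il23a, Il23r and Il6ra) passed in each of the 16 fits that left out 1 tumour. 5 of these 9 (Il2, Il9, Il11, Il21 and Il23r) were tested only because they were high in MC38 normoxic tumours. For example, Il21 ranged over -3.68 to -2.60 and Il6ra over -2.13 to -1.50. Il6st (without hypoxic 25) and Il21r (without normoxic 4) were each lost in 1 fit. Il7r and Il16 were lost without normoxic 4 or hypoxic 25, and Il10 and Il19 without normoxic 7, normoxic 21 or hypoxic 25. Il2rg was lost without normoxic 4 or hypoxic 12, 14 or 25, Il11ra1 without normoxic 4 or 7 or hypoxic 12 or 25, and Il22ra1 without normoxic 4 or 7 or hypoxic 14 or 25. Il6 was lost in 7 fits, those without any MC38 tumour but normoxic 10, and Il12rb1 in the same 7 and without E0771 normoxic 38 or 71. Il34 passed without normoxic 10 (-1.30, adjusted p = 0.00786). The number of calls among the 27 was 10 without hypoxic 25, where 171 of the 712 genes were called, and 12 without normoxic 4, where 175 were. It was 0 of the 27 and 0 of the 712 without the 5 tumours under 350000 counts, a fit with 2 hypoxic MC38 tumours; there 10 of the 27 had an unadjusted p under 0.05 and the median of the 27 was -1.48.

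With each tumour centred on its median gene, 4 of the 20 still passed: Il21 (-1.90, adjusted p = 0.0280), Il9 (-1.71, 0.0329), Il12b (-1.45, 0.0354) and Il7r (-1.42, 0.0431). Of these, Il21 and Il9 were tested only because they were high in the MC38 normoxic tumours. Their hypoxic MC38 means, 8.30 and 10.3, lay near the negative probes. On the centred scale 19 of the 27 differences were below 0 and the median was -0.79. Over the whole panel 115 genes were then called lower and 75 higher, in place of 342 and 4. With scaling on the positive-control probes 12 of the 27 and 213 of the 712 genes were called, all of them lower.

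Summed levels of cell type markers are given for the same tumours, without a test of the sums. The summed signal of 7 of 7 T cell markers was 774 to 1521 in normoxic and 178 to 635 in hypoxic MC38 tumours. For 5 of 5 macrophage markers it was 4925.3 to 49233 and 1268 to 4924.8, for 4 of 4 NK cell markers 779 to 1189.8 and 263 to 728, and for 5 of 5 B cell markers 84.0 to 609 and 23.6 to 78.2. For 5 of 5 dendritic cell markers it was 249 to 2752 and 70.8 to 254, for 3 of 3 neutrophil markers 378 to 1854 and 104 to 436, for 5 of 5 mast cell and eosinophil markers 248 to 2759.9 and 48.4 to 188, for 5 of 5 fibroblast markers 7076 to 58489 and 2774 to 9166, and for 4 of 4 endothelial markers 572 to 1757 and 313 to 641. The ranges of the groups overlapped for the dendritic cell, neutrophil, fibroblast, endothelial and epithelial lists and for Ptprc, and did not for the others. Single markers of every list but that of B cells did not pass. They were Kdr (0.12), Cdh5 (-0.33), Pecam1 (-0.86), Klrd1 (-0.85), Klrk1 (-0.96), Cd14 (-0.93), Msr1 (-1.33) and S100a8 (-1.39). The T cell genes Cd3d (-1.37), Cd3g (-1.70) and Cd8a (-1.65) did not pass either. Neither did Itgax (-1.43), Ms4a2 (-1.87), Col1a1 (-1.55), Thy1 (-1.05) and Epcam (-2.01). Cd79a, Blk and Muc1 were under the filter level and not tested. No marker of these lists was under the negative probes in every tumour. Ptprc, which encodes CD45, was at -1.78 (limma, adjusted p = 0.0576). The 4 of 5 epithelial markers on the panel summed to 119 to 987 and 29.8 to 148. The part of cell composition in the interleukin differences was not tested.

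The normoxic MC38 tumours split the interleukin genes into a pair of sets, a pattern seen in the data and described here without a test. In 13 of the 27 the order was normoxic 7 above 21 above 4 (Il2, Il9, Il10, Il11, Il12b, Il12rb1, Il15ra, Il19, Il21, Il22ra1, Il23a, Il23r and Il34), as in Il3, Il7 and Il1rapl2 among the genes under the filter level. In another 13 normoxic 4 was the highest of the 3 (Il6, Il6ra, Il6st, Il7r, Il10ra, Il11ra1, Il13ra2, Il15, Il16, Il21r, Il2rb, Il2rg and Il3ra). Over all 712 genes 21.9% had the first order and 55.5% the second. The first set holds all 7 genes tested only because of the MC38 normoxic tumours, the group in which the order was read. They are Il2, Il9, Il10, Il11, Il21, Il22ra1 and Il23r, most of them ligands. 9 of the 13 genes of the first order encode ligands, while 10 of the 13 of the second encode receptor chains. Among the 27, 12 encode ligands and 15 receptor chains. The ratio of normoxic 7 to normoxic 4 was 3.61 for Il2, 2.02 for Il21 and 1.90 for Il9, and 0.175 for Il6, 0.197 for Il6st and 0.330 for Il7r. Among cell markers, 4 of 5 B cell genes, 3 of 5 dendritic cell genes and 2 of 7 T cell genes had the first order. In 2 dendritic cell genes and 1 T cell gene normoxic 4 was the highest of the 3. The same held for 3 of 4 NK cell, 4 of 5 fibroblast and 2 of 4 endothelial genes, with 0 in the first order. Of 4 epithelial genes, 1 had the first order and 2 were highest in normoxic 4. All 5 macrophage, all 5 mast cell and eosinophil and all 3 neutrophil genes, with Ptprc, were highest in normoxic 4 of the 3; the part of these cells was not tested.

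**Figure D4:**
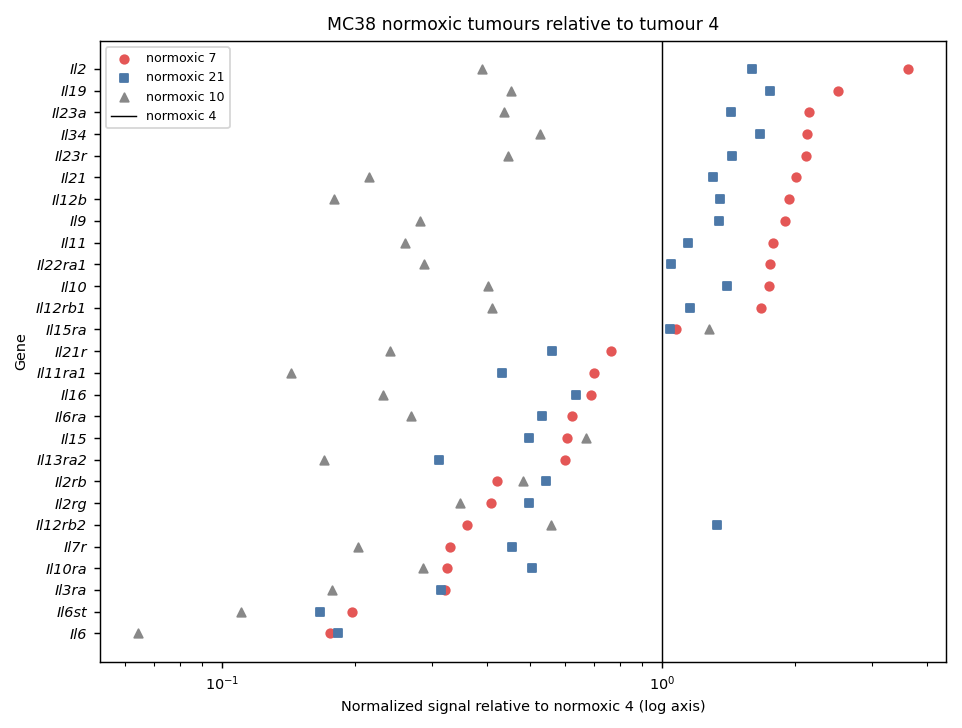
Normalized signal of MC38 normoxic tumours 7, 21 and 10 relative to normoxic 4 (log axis) for the 27 tested genes, ordered by the ratio of normoxic 7. The 13 genes from Il15ra up to Il2 lie right of 1 for normoxic 7 and 21, and the 14 from Il21r down to Il6 lie left of 1 for normoxic 7.

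In E0771 none of the 27 genes passed between 3 hypoxic and 5 normoxic tumours by limma, and none of the 712 did (0% called, in either direction). No gene of the 27 had groups that did not overlap, against 0.140% of all genes with hypoxic tumours above and 0.562% below. The smallest adjusted p among the 27 was 0.620, 1 of the 27 had an unadjusted p under 0.05, and precision weights left 0 of the 27 called as well. The median of the 27 was -0.37, against -0.36 for all genes, and 20 of the 27 were below 0. The gene with the small unadjusted p was Il2rg, at -0.96 ± 0.39 (limma, unadjusted p = 0.0267, adjusted p = 0.620). It measured 529.7, 523, 679, 512 and 937 in normoxic tumours 4, 17, 38, 65 and 71 and 262, 218 and 562 in hypoxic tumours 12, 22 and 55. Hypoxic 12 and 22 lay under every normoxic tumour and hypoxic 55 above 3 of the 5.

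Il16 had the difference farthest below 0 in E0771 and Il34 the one farthest above. Il16 measured 73.2, 42.7, 278, 249.6 and 231 in normoxic tumours 4, 17, 38, 65 and 71 and 29.6, 116 and 50.1 in hypoxic tumours 12, 22 and 55, a difference of -1.29 ± 0.68 (limma, adjusted p = 0.620). Normoxic 38, 65 and 71 were high, and normoxic 4 and 17 lay among the hypoxic tumours. Il34 measured 407, 516, 206, 430.1 and 372 in normoxic tumours 4, 17, 38, 65 and 71 and 737, 528 and 430.3 in hypoxic tumours 12, 22 and 55, a difference of 0.57 ± 0.42 (limma, adjusted p = 0.649). Hypoxic 12 was the highest and normoxic 38 the lowest tumour. Normoxic 38, 65 and 71 stood out in receptor chains as well: Il7r was 133 to 701 in normoxic and 66.1 to 429 in hypoxic tumours, Il2rb 162 to 1681 and 235 to 598, and Il10ra 119 to 672 and 182 to 194. In all 3, normoxic 38, 65 and 71 were the highest 3 tumours. The T cell markers had a summed signal of 363 to 3717 in normoxic and 303 to 1271 in hypoxic E0771 tumours; their part was not tested.

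The E0771 outcome depended on the scaling. Hypoxic 12 and 22 had the fewest counts of all tumours, and their negative probes averaged 17.4 and 24.6. Of the 27 genes, hypoxic 22 was the highest E0771 tumour in 6 (22.2%), near the share among all 712 genes (23.6%). Among these 6, Il21 (45.8) and Il9 (24.6) lay under the negative-probe level of that tumour, 52.8. With scaling on the positive-control probes, 127 of the 712 genes were called lower in hypoxic E0771 tumours, and among the 27 these were Il16 (-2.45, adjusted p = 0.0348) and Il2rg (-2.16, adjusted p = 0.0493). The median of the 27 was then -1.47 and that of all genes -1.51. Centred on the median gene, the median of the 27 was 0.05 and none was called.

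The hypoxia differences of the lines were not shown to differ for any of the 27. Tested as the E0771 difference minus the MC38 difference, 0 of the 27 and 0% of all genes passed (limma). An unadjusted p under 0.05 was found for 9 of the 27 and for 133 of the 712 genes. Among these 9, Il2, Il9, Il10, Il11, Il21 and Il23r were tested only because of the MC38 normoxic tumours. The largest was that of Il9, at 3.01 ± 0.88 (limma, adjusted p = 0.205), with a hypoxia difference of -2.84 in MC38 and 0.17 in E0771. Il11 (-2.64 and 0.07), Il23r (-2.61 and -0.07) and Il6ra (-1.79 and 0.02) had the same adjusted p = 0.205 for the difference. Il9 and Il11 lay above the negative probes in 0 of the 3 hypoxic E0771 tumours and Il23r in 1. Their E0771 differences therefore rest on values near background, while Il6ra was above it in all 3. Of the 27, 26 were above 0 in this test and Il15 was below (-0.66 ± 0.74). Most of the panel lay above 0 as well, with 15.7% of the 712 genes below. The count changed with 1 tumour: without MC38 normoxic 10, 11 of the 27 and 132 of the 712 genes passed, all above 0; the 11 were Il2, Il9, Il10, Il11, Il12b, Il19, Il21, Il23a, Il23r, Il34 and Il6ra, from 1.84 for Il23a to 3.57 for Il9. 6 of these 11 (Il2, Il9, Il10, Il11, Il21 and Il23r) were tested only because of the MC38 normoxic tumours, and 10 of the 11 are among the genes in which normoxic 7 exceeded 21 and 21 exceeded 4.

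Over the mean of both lines 15 of the 27 genes were lower in hypoxic tumours and none higher, where 41.4% of all genes were called lower and 0.702% higher (42.1% in all). The median of the 27 was -1.08, against -0.89 for all genes. Il16 fell by 1.73 ± 0.47 (limma, adjusted p = 0.0184), Il13ra2 by 1.70 ± 0.47 (adjusted p = 0.0184) and Il2rg by 1.03 ± 0.27 (adjusted p = 0.0184). These 3 genes had differences of -2.16, -2.32 and -1.11 in MC38 and -1.29, -1.08 and -0.96 in E0771. Il12b (by 1.69 ± 0.50), Il7r (by 1.68 ± 0.55), Il21 (by 1.67 ± 0.51), Il2 (by 1.46 ± 0.55) and Il11ra1 (by 1.45 ± 0.54) fell as well, as did Il9, Il11, Il21r, Il23a, Il23r, Il6ra and Il6st (limma, adjusted p up to 0.0444 for the 15). 5 of the 15 (Il2, Il9, Il11, Il21 and Il23r) were tested only because of the MC38 normoxic tumours. A call over the mean of both lines does not show a fall in each line. In E0771, Il9 (0.17), Il11 (0.07) and Il6ra (0.02) were above 0, and Il23r (-0.07) and Il2 (-0.14) were close to it. The rest of the 15 were below 0 there. Il2, Il9, Il11 and Il21 lay above the negative probes in 0 of the 3 hypoxic E0771 tumours. Il13ra2 in E0771 measured 26.5, 14.5, 56.7, 39.8 and 25.6 in normoxic tumours 4, 17, 38, 65 and 71 and 6.84, 28.2 and 12.3 in hypoxic tumours 12, 22 and 55. The negative-probe levels of these hypoxic tumours were 42.95, 52.8 and 12.15. Il13ra2 thus lay under background in hypoxic 12 and 22 and just above it in hypoxic 55. None of the 15, and none of the 712 genes, passed without E0771 hypoxic 12 (smallest adjusted p of the 27 0.0662, with 17 at an unadjusted p under 0.05). The count was 3 without MC38 hypoxic 25 (93 of the 712 genes), 5 without MC38 normoxic 4 (109 genes) or E0771 hypoxic 55 (129 lower and 2 higher), and 6 without MC38 normoxic 7 (149 genes). It was 7 without MC38 normoxic 21 (195 lower and 3 higher) and 8 without E0771 normoxic 38 (176 lower and 1 higher). Il16 passed with median centring (-0.95, adjusted p = 0.0301); no other of the 15 did.

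Between the lines, averaged over hypoxic and normoxic tumours, 6 of the 27 genes differed. Il13ra2, Il6, Il9 and Il23a were lower in E0771 than in MC38, and Il34 and Il6ra were higher; over all genes 8.85% were lower and 4.78% higher (13.6% in all). Il13ra2 fell by 2.04 ± 0.47 from MC38 to E0771 (limma, adjusted p = 0.00585), at 6.84 to 56.7 in E0771 and 14.9 to 455 in MC38. For none of the 27 were all tumours of one line above all of the other, as held for 1.69% of all genes with E0771 above and 1.97% with E0771 below. Il6 measured 64.4, 15.4, 42.1, 39.8 and 21.3 in normoxic tumours 4, 17, 38, 65 and 71 and 27.4, 88.0 and 23.1 in hypoxic tumours 12, 22 and 55 of E0771, and was lower by 1.86 ± 0.49 there (limma, adjusted p = 0.0140). Its lowest MC38 tumour was at 64.5, and hypoxic 22 was the only E0771 tumour above that. Without E0771 hypoxic 55 the Il6 call was lost (-1.68, adjusted p = 0.0507).

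Il34 was 206 to 737 over the 8 E0771 tumours, given above one by one, against 116 to 503 over the 8 MC38 tumours. It was higher in E0771 by 1.16 ± 0.30 (limma, adjusted p = 0.0117); MC38 normoxic 4, 7 and 21 lay within the E0771 range. Il6ra measured 239, 354, 411, 547 and 393 in normoxic tumours 4, 17, 38, 65 and 71 and 251, 598 and 370.1 in hypoxic tumours 12, 22 and 55 of E0771. It was higher there by 1.02 ± 0.30 (limma, adjusted p = 0.0306). Its mean was 384 in MC38 normoxic and 389 in E0771 normoxic tumours, against 104 in MC38 hypoxic and 406 in E0771 hypoxic ones. Averaged over both states, Il6 and its receptor chain differed in opposite directions. By the group means the Il6ra difference lay in the hypoxic tumours. Its hypoxia difference was not shown to differ between the lines (limma, adjusted p = 0.205). Il23a was 18.1 to 47.4 in E0771 and 27.3 to 241 in MC38, lower by 1.32 ± 0.35 (limma, adjusted p = 0.0140). Il9 was lower by 1.38 ± 0.44 (limma, adjusted p = 0.0470), at the edge of the threshold, and was tested only because of the MC38 normoxic tumours: it passed in 3 of 16 fits without 1 tumour, and its values in MC38 hypoxic (8.27 to 14.5) and E0771 tumours (5.45 to 24.6) overlapped. Il13ra2, Il23a and Il34 passed in all 16 such fits and Il6ra in 9; Il6ra was lost without MC38 hypoxic 12 or 25, MC38 normoxic 21, E0771 hypoxic 22 or 55, or E0771 normoxic 65 or 71. Il34 (0.39) and Il6ra (0.25) did not pass with positive-control scaling. Without the 5 tumours under 350000 counts 1 of the 27 was called, with 24 of the 712 genes lower and 9 higher, and E0771 hypoxic 55 was then the only hypoxic E0771 tumour. The other genes, among them Il2rb (0.10 ± 0.44), Il7r (0.33 ± 0.55) and Il10ra (0.42 ± 0.41), did not pass between the lines.

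**Figure D5:**
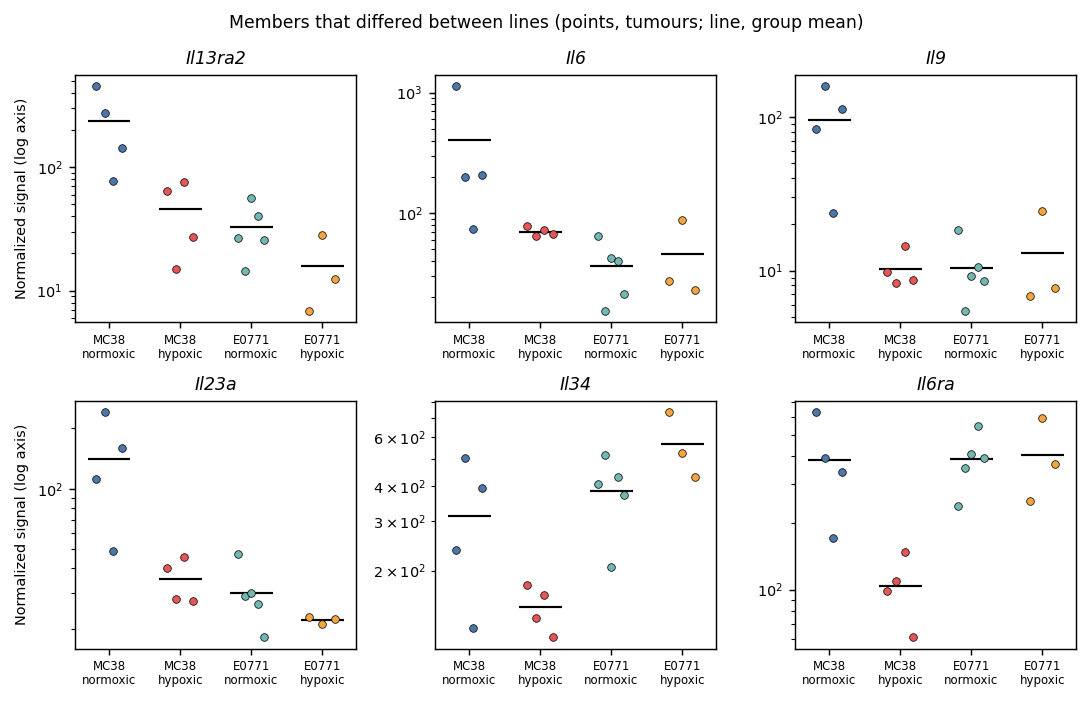
Normalized signal (log axis) in each tumour (points) with the group mean (line) for the 6 genes that differed between the lines. Il13ra2, Il6 and Il23a are lower and Il34 is higher in most E0771 tumours, and for Il9 the difference lies in MC38 normoxic tumours 4, 7 and 21.

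Partner genes of these cytokines that lack the Il prefix were listed as well, as chains and ligands that share a receptor with the members. Of 14 listed partner chains and related cytokines 8 were on the panel and tested, and 6 were lower in hypoxic MC38 tumours, with a median of -1.996: Csf2rb (-2.63), the beta chain shared by the IL-3 and IL-5 receptors, Csf2 (-2.31), which signals through it, Cd4 (-2.24), to which IL-16 binds, Csf1r (-2.07), the receptor of IL-34, Ebi3 (-1.92), the partner of Il27, and the gp130 cytokine Osm (-1.66). Lif (-0.73), also a gp130 cytokine, and Csf1 (-0.29), the other ligand of Csf1r, did not pass. Of 16 listed JAK-STAT genes 12 were tested, and 5 were lower: Stat4 (-2.66), which acts below the IL-12 receptor, Tyk2 (-1.84), Jak2 (-1.65), Stat5b (-1.03) and Jak1 (-0.93). Stat3 (-0.16), the main factor below gp130, Jak3 (-0.37), the kinase bound to Il2rg, and the feedback inhibitors Socs1 (-0.25) and Socs3 (-0.52) did not pass. The median of the 12 was -0.54. Over all 712 genes 48.0% were called lower in hypoxic MC38 tumours, with a median of -1.27. The JAK-STAT genes thus fell less than the panel at the median. In E0771 none of either list passed (medians -0.51 and -0.02). Between the lines Lif (-2.66, limma adjusted p = 1.36e-05) and Csf2 (-1.37, adjusted p = 0.0493) were lower in E0771, as Il6 was.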

How the data were processed

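The deposited values of 16 tumours are a normalized signal on a linear scale; how the authors scaled it is not given in the sources used here. Per the labels, the panel is the NanoString mouse PanCancer Immune panel. The deposited signal of each tumour is a whole multiple of 1 step (0.631 to 3.52; 100% of gene values above 1 within 0.1 step), no value is under 1, the 20 housekeeping genes have the same geometric mean in every tumour, and the 8 negative and 6 positive probes were left unscaled. Dividing by the step gave estimated counts. Differences are therefore relative to the housekeeping genes.

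The members and lists were chosen with earlier results of these data known. Genes with a mean signal of at least 24.0 (712 of 770; 27 of the 36 members) were fitted in limma 3.58.1 (R 4.3.3; lmFit, eBayes with trend) on log2(signal + 1) with 4 group means over all 16 tumours, and p-values were Benjamini-Hochberg adjusted over the 712 genes. Per-tumour values were given for up to 8 called members with the largest fall or rise in each hypoxia comparison, up to 8 called between the lines, and the ligand and receptor of highest signal in each family; ranges for members called nowhere. The fit was tested on simulated data with less noise than these tumours, independent between genes, and without differences in depth or background. That test therefore does not show how the fit performs on these tumours. All 36 members were matched by symbol to RefSeq genes of GRCm38.p6. Nothing in the labels says whether the RNA of a tumour was measured more than once; each tumour has its own mouse number within a line. Alternatives were median centring, positive-control scaling, background subtraction, other filters, a pseudocount of 10, eBayes without trend, fits of 1 line, leaving out tumours, and, added after seeing the data, precision weights.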

Additional observations from a re-analysis of the deposited data

Results flagged for a closer look

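Within the groups of 4 and 5 tumours, 81 sets of values of the 27 tested genes were searched for a tumour that stands apart, and 1 was found; chance alone marks about 1 in 20. Il15ra was at 122 in MC38 hypoxic 17, against 83.3 to 87.6 in the other 3 hypoxic MC38 tumours. This tumour also had the highest Il7r and Ptprc of its group.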

How the results depend on the processing

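Of the 27 tested genes, the 20 calls in MC38 became 4 with median centring (115 of the 712 genes lower, 75 higher), 12 with positive-control scaling (213 genes lower), 13 with a filter at a mean of 50 (19 members and 601 genes tested, 234 lower and 2 higher) and 0 without the 5 tumours under 350000 counts (0 genes; smallest adjusted p 0.170 by limma; 10 at an unadjusted p under 0.05); leaving out 1 tumour gave 10 to 21. Il2rg in MC38, -1.11 as deposited, was at 0.0107 with median centring. In E0771 0 calls became 2 with positive-control scaling (127 genes lower), and leaving out 1 tumour gave 0 in every fit. The 15 calls over the mean of both lines became 1 with median centring (65 genes lower, 80 higher), 23 with positive-control scaling (405 lower), 8 with precision weights (voom, chosen after seeing the data; 182 lower, 3 higher) and 0 without the tumours under 350000 counts (0 genes; 5 members at an unadjusted p under 0.05), and leaving out 1 tumour gave 0 to 19. For the difference of the hypoxia effect, leaving out 1 tumour gave 0 to 11 (0 to 132 genes). The 6 calls between the lines became 1 without the tumours under 350000 counts (24 genes lower, 9 higher), and leaving out 1 tumour gave 3 to 9. The cause of these changes was not tested, apart from the smaller number of tumours or genes in some fits. Of 3389 values of single members under the alternatives, 2944 kept both their sign and their side of the threshold, 244 lost a call and 58 gained one. 143 changed sign, of which 142 were called in neither fit and the other is Il2rg above. 31 of the sign changes came with median centring, 23 with positive-control scaling and 71 with leaving out 1 tumour. Genes near the negative probes, such as Il2, Il9 and Il21 in hypoxic MC38 tumours, have falls limited by the background. The planned edgeR and DESeq2 fits were not run, since the deposited values are not counts. No paired analysis was possible because no hypoxic and normoxic group of a line share a mouse number, and groups of different lines share at most 1.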
